A study of Mus musculus with 9 samples.

Results

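Cytochrome c oxidase, or complex IV, was followed through the postnatal growth of the mouse heart in the transcripts of its nuclear subunit genes. The members were taken by symbol from the deposited count table, and 8 of the 9 named genes were analysed among 15824 genes: Cox5a, Cox5b, Cox6a1, Cox6a2, Cox7a1, Cox7a2, Cox8a and Cox8b. Cox4i1 was not analysed here. All 8 passed the filter on low counts. The study covers cardiomyocytes of CD1 mice at postnatal day 1 (P1), day 14 (P14) and day 56 (P56), with 3 libraries of ribosomal-RNA-depleted total RNA at each age and age as the difference between the groups. Each library pooled hearts, 12 of them for a P1 library and 6 to 7 for a later one. The labels' protocols describe both a whole-cell isolation, written for mice after surgery, and a sort of nuclei carrying Pcm1. Which of these gave the RNA is not settled by the labels, so levels and isoform shares may be of nuclear or of whole-cell RNA. No other genotype or treatment of these mice is given.

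Complex IV passes electrons from cytochrome c to oxygen and pumps protons across the inner mitochondrial membrane. Its catalytic core is encoded by mitochondrial DNA, and nuclear genes encode the smaller subunits around it. Subunits 6a, 7a and 8 each come as a pair of isoforms from separate genes: a heart and muscle isoform (Cox6a2, Cox7a1, Cox8b) and an isoform found in most tissues (Cox6a1, Cox7a2, Cox8a). In rodent heart the muscle isoforms are known to take over from the ubiquitous ones during development. Cox5a and Cox5b encode subunits that have no such muscle partner.

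The 8 genes lie on 5 chromosomes in GRCm38. The 3 muscle isoforms are all on chromosome 7 (Cox7a1 chr7:30184144-30186078, plus strand, Cox6a2 chr7:128205435-128206387, minus strand, Cox8b chr7:140898945-140900446, minus strand). Their ubiquitous partners lie elsewhere: Cox6a1 at chr5:115345642-115348981, Cox7a2 at chr9:79755361-79759878 and Cox8a at chr19:7215153-7217616. Cox5a is at chr9:57521274-57532426 and Cox5b at chr1:36691449-36693681. RefSeq promoters (GRCm38.p6) were matched for 7 of the 8. The 4 shown belong to the 7a and 8 pairs, the pairs for which both partners were matched, and their capitals mark CpG dinucleotides, whose number differs between the partners. Each is the 250 bases before the RefSeq start, 5′ to 3′ on the gene's strand: Cox7a1 chr7:30183921-30184170 plus, Cox7a2 chr9:79759854-79760103 minus, Cox8b chr7:140900447-140900696 minus and Cox8a chr19:7217617-7217866 minus.
Cox7a1: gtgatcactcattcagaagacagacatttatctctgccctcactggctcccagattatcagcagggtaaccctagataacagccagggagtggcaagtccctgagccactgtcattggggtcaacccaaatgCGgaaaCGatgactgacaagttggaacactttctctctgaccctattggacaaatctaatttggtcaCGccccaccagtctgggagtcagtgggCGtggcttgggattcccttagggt
Cox7a2: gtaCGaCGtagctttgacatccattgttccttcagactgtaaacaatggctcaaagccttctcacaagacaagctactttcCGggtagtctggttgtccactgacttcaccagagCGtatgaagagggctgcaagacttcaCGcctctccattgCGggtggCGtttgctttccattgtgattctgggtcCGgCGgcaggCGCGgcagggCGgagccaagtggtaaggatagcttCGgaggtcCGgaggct
Cox8b: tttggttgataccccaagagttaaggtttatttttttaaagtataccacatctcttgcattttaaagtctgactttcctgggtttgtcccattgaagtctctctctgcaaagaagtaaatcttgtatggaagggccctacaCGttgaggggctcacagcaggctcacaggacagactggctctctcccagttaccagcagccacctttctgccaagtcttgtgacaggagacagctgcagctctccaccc
Cox8a: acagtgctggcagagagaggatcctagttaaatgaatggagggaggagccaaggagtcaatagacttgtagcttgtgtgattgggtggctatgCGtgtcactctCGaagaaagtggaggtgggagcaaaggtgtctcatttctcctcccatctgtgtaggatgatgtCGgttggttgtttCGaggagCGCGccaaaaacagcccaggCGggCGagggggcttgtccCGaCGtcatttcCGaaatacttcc

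Both muscle promoters held fewer CpGs than those of their partners. Cox7a1 had 4 and Cox7a2 had 14, and Cox8b had 1 while Cox8a had 11. The median over 32851 mouse promoters of the same length was 6, and 18.8% of them had as few as Cox8b. Cox6a1 and Cox5a each had 26 CpGs and Cox5b had 22. Motifs were searched on both strands over the 300 bases from 250 before to 50 after the start, with positions counted from the start and none numbered 0. The palindromic NRF1 motif, bound by a known activator of respiratory genes, occurred in Cox6a1 at -162 to -153 and -117 to -108, and in 4.60% of all promoters. The ETS motif CCGGAAG, bound by GABPA, was found in Cox6a1 and in Cox8a (at -5 to 2 and at 33 to 39) and in 8.86% of promoters. The GC box GGGCGG was found in Cox5a, Cox6a1 and Cox7a2 and in 35.7% of promoters. Among the muscle isoforms, Cox8b held the E-box CAGCTG at -19 to -14 and 17 to 22 (in 16.3% of promoters) and TATAAA at 5 to 10 (13.6%). AAGGTCA, an ERR motif, and the MEF2 motif matched no member's window and 4.72% and 0.557% of all promoters. These matches describe letters in a window and are not binding sites.

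A P1 library held 49190887 to 58538025 counts, a P14 library 36619799 to 38878181 and a P56 library 45866453 to 49535917. Members had between 172 (Cox7a1) and 3596 (Cox5a) counts per library. For Cox7a1 the counting error alone was 7.62% at its lowest count. Levels are given as CPM, the usual depth-scaled count, here with TMM-scaled library sizes. Adjusted p-values (Benjamini-Hochberg, over 15817 genes) are those of the quasi-likelihood F test in edgeR, and they measure the spread between libraries, which the design text calls a biological triplicate. All 10 cardiomyocyte markers were measured, and their summed level (P1, P14, P56) was 51493 to 61417, 60011 to 91975 and 55133 to 78852 CPM. Ttn and Ryr2 made up most of this sum. From P1 to P56, 2 of the 10 were called higher and 2 lower, against 30.9% and 31.7% of all genes. Markers of other cells were present too: the mean log2 CPM of 35 fibroblast, endothelial, leukocyte, smooth muscle and epicardial genes was 1.62 to 2.18 for P1 libraries, 2.70 to 3.87 for P14 and 0.74 to 1.81 for P56. This marker score was highest at P14, where every library scored above every P1 and P56 library. In a fit the score can therefore be separated only in part from age, and a call lost with it does not tell them apart. The part of the score in the age differences was examined only by adding it to the model. In such libraries fewer cells of a type and less RNA per cell cannot be told apart. Of markers of skeletal muscle, which also uses the muscle isoforms, 3 of 14 were measured, and their summed level (P1, P14, P56) was 97.1 to 115, 92.3 to 126 and 98.4 to 117 CPM. Most of that sum was Ckm, which cardiomyocytes express too. The mean level of Tnnt3 was 0.201 CPM in P1 libraries, 0.825 in P14 and 0.113 in P56 libraries (2.02 to P14, adjusted p = 0.00331, then -2.84, adjusted p = 0.001), and Atp2a1 fell by 1.67 from P1 to P56 (adjusted p = 0.00715). Of brown fat markers 4 of 8 were measured, and their summed level (P1, P14, P56) was 531 to 678, 634 to 1049 and 496 to 624 CPM. The log2 changes of these 4 ran from -1.97 to 1.54 in the step to P14 and from -1.97 to -0.40 from P14 to P56.

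Cox7a1, the muscle isoform of subunit 7a, rose with age. It stood at 3.41, 3.26 and 3.94 CPM in the P1 libraries, 5.60, 7.17 and 5.49 at P14 and 9.35, 8.01 and 9.38 at P56. Every P14 library lay above every P1 library, and every P56 library above every P14 library. The log2 change was 0.78 ± 0.14 (SE) from P1 to P14 (adjusted p = 0.00105), 0.55 ± 0.14 from P14 to P56 (adjusted p = 0.00656) and 1.33 ± 0.14 from P1 to P56 (adjusted p = 1.75e-05). Fitted together with the marker score, the later step was 0.73 (adjusted p = 0.0949) and the whole span 1.39 (adjusted p = 8.3e-06). Cox7a1 overlaps no other annotated gene.

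Its partner Cox7a2, the ubiquitous isoform of subunit 7a, moved the other way at first. Its level was 28.7, 32.1 and 34.6 CPM at P1, 20.3, 23.0 and 21.2 at P14 and 27.1, 27.0 and 26.0 at P56. The P14 libraries were the lowest, below both other ages without overlap, and the P56 libraries lay below all P1 libraries. Cox7a2 fell by 0.57 ± 0.08 on the log2 scale from P1 to P14 (adjusted p = 0.000322) and rose by 0.31 ± 0.08 from P14 to P56 (adjusted p = 0.00962). Fitted with the marker score the rise was 0.36 (adjusted p = 0.187). Across the whole span it changed by -0.25 ± 0.08 (adjusted p = 0.0222). This last call was lost without P1 replicate 2 (adjusted p = 0.0625), P1 replicate 3 (0.0959), P56 replicate 2 (0.0501) or P56 replicate 3 (0.0693), and with the marker score (0.0524).

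From these levels the Cox7a1 to Cox7a2 count ratio went up about 3-fold. Per library it was 0.119, 0.101 and 0.114 at P1, 0.276, 0.312 and 0.259 at P14 and 0.345, 0.297 and 0.361 at P56. The P1 ratios were the lowest and did not overlap either later age, whereas P14 and P56 overlapped. The mean was 0.111 ± 0.00899 (SD, n = 3) at P1, 0.282 ± 0.0271 at P14 and 0.334 ± 0.0332 at P56, a fold of 2.53 from P1 to P14, 1.18 from P14 to P56 and 3.00 over the whole span. An exact permutation test of F, run over the 1680 assignments of libraries to ages gave p = 0.00714 (adjusted over the 3 ratios, 0.0214), where the smallest possible was 0.00357. Comparisons of 3 libraries with 3 cannot go below 0.1 in an exact two-sided permutation test.

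Of the subunit 8 pair, the ubiquitous Cox8a fell early and the muscle isoform Cox8b did not pass the test at any step. Cox8a was at 12.4, 12.5 and 14.7 CPM at P1, 9.43, 9.22 and 9.10 at P14 and 9.49, 9.74 and 10.6 at P56. The 3 P1 libraries lay above all others. Cox8a fell by 0.51 ± 0.09 on the log2 scale from P1 to P14 (adjusted p = 0.00125) and was still lower at P56 than at P1 (-0.41 ± 0.09, adjusted p = 0.00343), both under every alternative run. Between P14 and P56 its change was 0.10 (adjusted p = 0.378).

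Cox8b measured 5.49, 4.55 and 7.01 CPM at P1, 5.44, 7.44 and 5.27 at P14 and 6.48, 6.64 and 6.46 at P56. The ages overlapped, with the P56 libraries close together inside the range of the earlier ones. Its log2 change was 0.09 to P14 (adjusted p = 0.686), 0.11 from P14 to P56 (0.625) and 0.20 ± 0.18 over the whole span (0.346).

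The Cox8b to Cox8a count ratio was 0.444, 0.363 and 0.477 at P1, 0.577, 0.806 and 0.579 at P14 and 0.683, 0.682 and 0.611 at P56. All P1 ratios were below all later ones, and P14 and P56 overlapped. The fold was 1.52 from P1 to P14, 1.02 from P14 to P56 and 1.55 from P1 to P56. The exact permutation test gave p = 0.0357, which did not pass after adjustment over the 3 ratios (0.0536). Without P14 replicate 2, the library with the highest ratio, the adjusted value was 0.0107.

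For subunit 6a the isoform ratio did not pass the test. Cox6a2, the muscle isoform, was at 8.00, 8.28 and 10.5 CPM at P1, 6.52, 9.22 and 7.12 at P14 and 10.2, 9.67 and 12.7 at P56. The P56 libraries lay above all P14 libraries and overlapped P1. The change was -0.23 ± 0.17 from P1 to P14 (adjusted p = 0.269), 0.51 ± 0.17 from P14 to P56 (0.0256) and 0.28 from P1 to P56 (0.162). The call from P14 to P56 was lost without P14 replicate 1 (0.41, adjusted p = 0.0671), P14 replicate 3 (0.46, adjusted p = 0.0628) or P56 replicate 3 (0.38, adjusted p = 0.101), and after adding the marker score (0.34, adjusted p = 0.527).

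The whole of Cox6a2 lies inside Itgad, an integrin alpha chain gene on the opposite strand, and 70 of its 680 exon bases are shared with Itgad exons. The mean level of Itgad was 2.91 ± 0.25 CPM (SD, n = 3) in P1 libraries, 3.41 ± 0.56 in P14 and 6.49 ± 0.43 in P56 libraries. It rose by 0.93 ± 0.14 from P14 to P56 (adjusted p = 0.000404), the same step in which Cox6a2 was called. The sources used here do not say whether counting used strand, so reads of the pair may not be separated and the part of Itgad in the Cox6a2 value was not tested.

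Cox6a1, the ubiquitous isoform, measured 14.3, 14.9 and 17.1 CPM at P1, 14.7, 14.8 and 16.7 at P14 and 13.9, 18.3 and 17.2 at P56. All ages overlapped, and its largest step was 0.10 ± 0.12 (P14 to P56, adjusted p = 0.491). The Cox6a2 to Cox6a1 count ratio was 0.559, 0.555 and 0.615 at P1, 0.444, 0.623 and 0.426 at P14 and 0.730, 0.528 and 0.736 at P56. Each age overlapped the others, and the log2 change over the whole span was 0.19. The exact permutation test gave p = 0.182, also 0.182 after adjustment, and 0.0393 after adjustment without P14 replicate 2. That replicate had the highest level of each of the 3 muscle isoforms at P14.

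**Figure D1:**
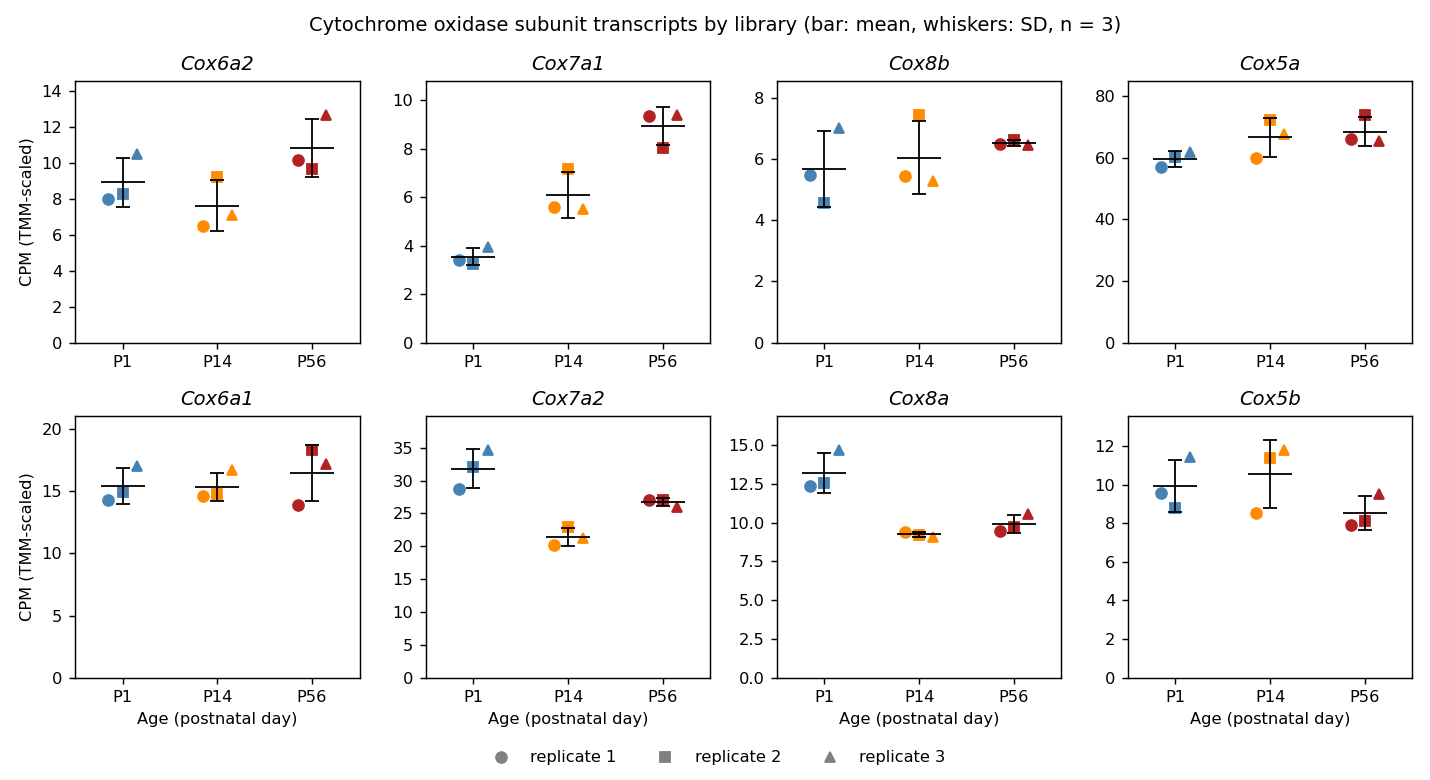
Level of each member in CPM (vertical axis, from 0) at P1, P14 and P56 (horizontal axis), 1 panel per gene, with a symbol per replicate library, a bar for the mean and whiskers for the SD (n = 3). Cox7a1 climbs from 3.26 to 3.94 CPM at P1 to 8.01 to 9.38 at P56, and Cox7a2 is lowest at P14.

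**Figure D2:**
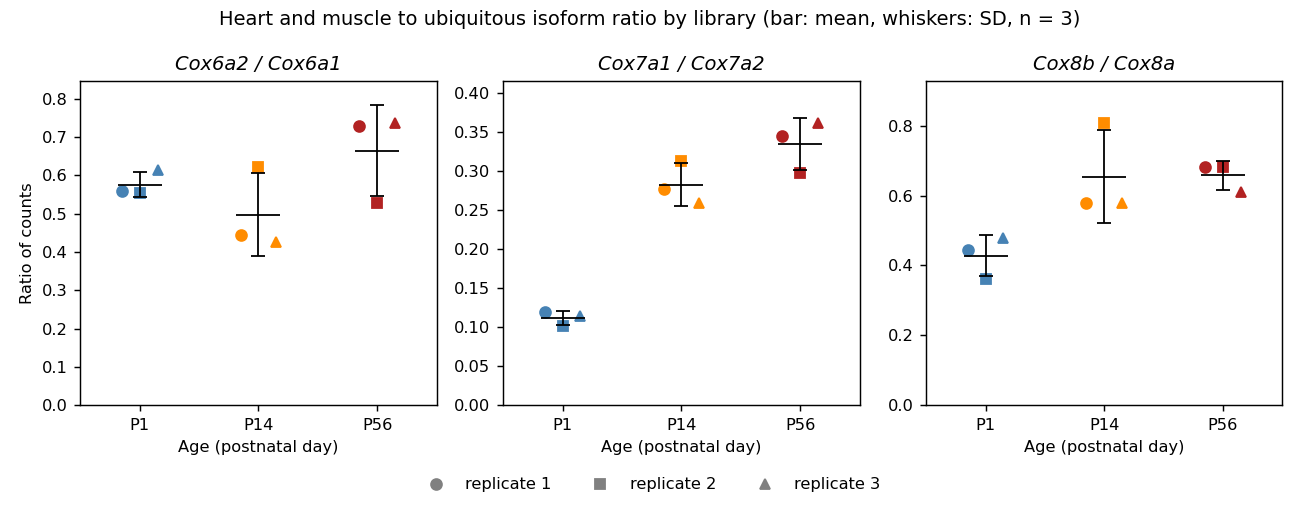
Ratio of muscle to ubiquitous isoform counts (vertical axis, from 0, a separate scale per panel) at each age (horizontal axis) for Cox6a2/Cox6a1, Cox7a1/Cox7a2 and Cox8b/Cox8a, with a symbol per library, a bar for the mean and whiskers for the SD (n = 3). The P1 libraries lie below the later ones for Cox7a1/Cox7a2 and Cox8b/Cox8a, and overlap them for Cox6a2/Cox6a1.

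Cox5a and Cox5b, which encode subunits beside the catalytic core and have no muscle isoform, did not pass the test at any step. Cox5a had the highest CPM of the members: 56.9, 60.1 and 61.7 at P1, 59.8, 72.4 and 67.8 at P14 and 66.2, 73.8 and 65.2 at P56. Over 1140 bases Cox5a overlaps Gm26631, a noncoding gene on the opposite strand, whose part in the Cox5a value was not tested. The P56 libraries of Cox5a lay above its P1 libraries and overlapped P14. The log2 change was 0.16 ± 0.08 to P14 (adjusted p = 0.110) and 0.20 ± 0.08 over the whole span (adjusted p = 0.0514), which was under the threshold with the size factors of DESeq2 (0.0348), with DESeq2's test (0.0278), in a fit of P1 and P56 alone (0.0201), and without P14 replicate 1 or replicate 2 (lowest adjusted p over all alternatives 0.0171).

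Cox5b measured 9.56, 8.79 and 11.4 CPM at P1, 8.53, 11.4 and 11.8 at P14 and 7.93, 8.10 and 9.51 at P56. The ages overlapped. Its largest step was -0.31 ± 0.15 from P14 to P56 (adjusted p = 0.104), and without P14 replicate 1 it was -0.44 (adjusted p = 0.0157).

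From P1 to P14, 1 of the 8 members was called higher, where 28.4% of all genes were, and 2 were called lower, where 27.5% of all genes were. From P14 to P56, 3 were called higher (Cox6a2, Cox7a1 and Cox7a2), against 27.5% of all genes. In that step 0 were called lower, against 28.5% of all genes. Between P1 and P56, 1 was higher (30.9% of all genes) and 2 were lower (31.7%). In either direction 3 of 8 were called in each comparison, against 55.9%, 56% and 62.6% of all genes, and a difference among any of the ages was called for 4 of 8 (Cox6a2, Cox7a1, Cox7a2 and Cox8a), against 78%. Counted in either direction, the members were thus called no more often than the table at large. The median log2 change of the members was 0.04, 0.11 and 0.15 in the same order, and that of all genes was 0.00, -0.02 and -0.03. All 3 calls from P14 to P56 were lost with the marker score in the fit, at the adjusted p given with each gene (Cox6a2 0.527, Cox7a1 0.0949, Cox7a2 0.187), and without P14 replicate 1 Cox5b was called lower in that step. The number called higher from P1 to P14 was 2 without P14 replicate 1, and that from P1 to P56 was 2 in the settings that called Cox5a. The number called lower from P1 to P56 was 1 in the settings that lost Cox7a2.

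How much of a subunit's transcript came from the muscle gene depends on the scale, because the partners differ in length and the sources used here do not say whether reads were counted over exons or whole genes. Across 15758 genes, log2 count was fitted on both log2 lengths at once. The slope was 0.84 for exon length and 0.34 for gene span, each given the other. Taken singly, the lengths had similar Spearman correlations with the count, 0.53 for exon length and 0.49 for gene span. In raw counts Cox7a1 made up 10.0%, 22.0% and 25.0% of the subunit 7a counts at P1, P14 and P56. Per kilobase of exon it was 16.4%, 33.2% and 37.0%, and per kilobase of gene span 20.6%, 39.7% and 43.8%. Cox7a2 held the larger share at each age on these 3 scales.

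For subunit 8 the Cox8b share was 29.9%, 39.3% and 39.7% of counts at the 3 ages. Per kilobase of exon it was 42.3%, 52.6% and 53.1%, and per kilobase of span 41.1%, 51.4% and 51.9%, so per length the partners stood near equal shares at P14 and P56. At P14 replicates 1 and 3 had 49.8% and 49.9% per kilobase of exon and 48.6% and 48.7% per kilobase of span, and replicate 2 had 58.1% and 57.0%. The 3 P56 libraries had 51.2% to 54.0% per kilobase of exon. Cox6a2 made up 36.5%, 33.0% and 39.7% of the subunit 6a counts and 37.3%, 33.7% and 40.5% per kilobase of exon. Per kilobase of span it was 66.9%, 63.1% and 69.6%, so which isoform of this pair prevailed cannot be read without knowing how reads were counted.

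**Figure D3:**
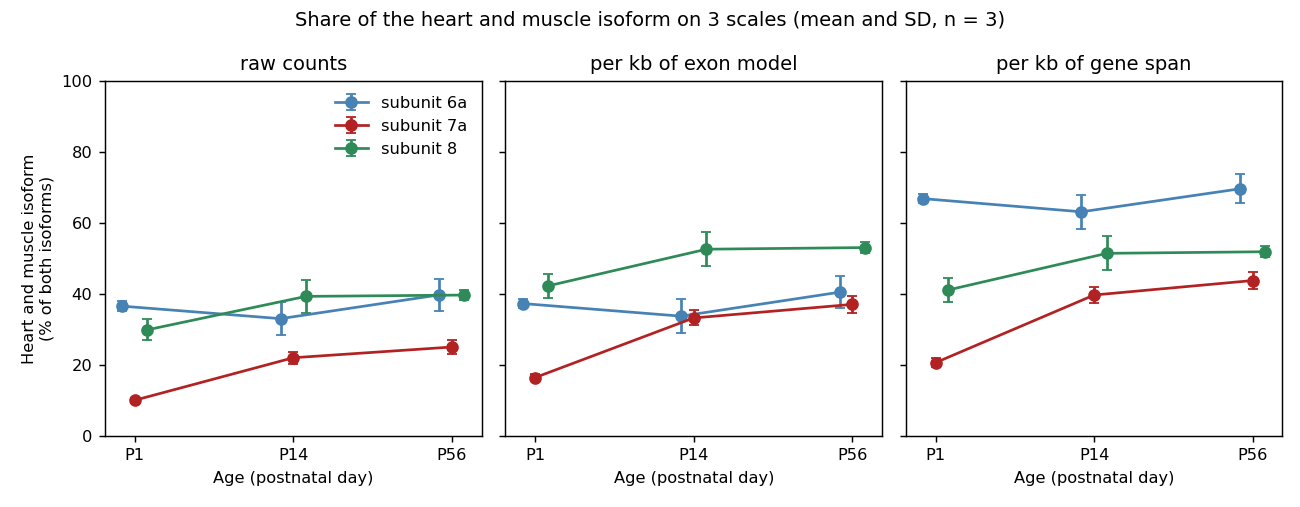
Share of the muscle isoform in percent of both isoforms (vertical axis, from 0) at each age (horizontal axis) for subunits 6a, 7a and 8, in 3 panels for raw counts, per kilobase of exon and per kilobase of gene span. Points are means and whiskers SDs (n = 3), and the subunit 6a line moves from below 50 to above 50 between the exon and the span scale while the 7a line lies below 50 in each panel.

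The sum of both isoforms did not pass the test after adjustment for any of the 3 subunits. In CPM per kilobase of exon the subunit 7a sum was 40.3 ± 3.64 at P1, 34.1 ± 3.14 at P14 and 44.9 ± 1.33 at P56 (SD, n = 3). The P56 libraries lay above all P14 libraries. The exact permutation test gave p = 0.0214, adjusted over the 3 sums 0.0643, and it passed without P1 replicate 3 (adjusted 0.0321). The subunit 6a sum was 35.1, 33.1 and 39.4 at the 3 ages (adjusted permutation p = 0.246) and the subunit 8 sum was 37.1, 31.7 and 34.2 (adjusted permutation p = 0.296).

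Ordered by CPM per kilobase of exon, the P1 libraries ran from Cox7a2 (33.7) through Cox5a (28.3), Cox6a1 (22.0), Cox8a (21.3), Cox8b (15.8), Cox6a2 (13.1) and Cox7a1 (6.62) to Cox5b (6.25). Neighbours whose libraries overlapped at P1 were Cox6a1 with Cox8a, Cox8b with Cox6a2, and Cox7a1 with Cox5b. At P14 the order was Cox5a (31.7), Cox7a2 (22.7), Cox6a1 (21.9), Cox8b (16.8), Cox8a (14.9), Cox7a1 (11.4), Cox6a2 (11.2) and Cox5b (6.65), with overlap of Cox7a2 with Cox6a1, Cox8b with Cox8a, and Cox7a1 with Cox6a2. At P56 it was Cox5a (32.6), Cox7a2 (28.3), Cox6a1 (23.5), Cox8b (18.1), Cox7a1 (16.7), Cox8a (16.1), Cox6a2 (15.9) and Cox5b (5.37), and the 3 genes from Cox7a1 to Cox6a2 overlapped as neighbours. On the exon scale Cox7a1 was thus the seventh at P1 and the fifth at P56, while Cox5b was last at each age. Per kilobase of gene span the order was different: Cox6a2 came first at each age, Cox7a1 was last at P1 and P14 and the fifth at P56, and Cox5b was the sixth, the fourth and then last. On the exon scale the members stood between the 70.6 (Cox5b) and the 94.4 percentile (Cox5a) of 15751 genes. Per kilobase of gene span they stood between the 93.4 (Cox7a1) and the 98.7 percentile (Cox6a2).

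The genes most like each isoform over the 9 libraries were named by Pearson's r of log2 CPM among 7547 genes with at least 10 CPM, as a description in which all points share the same libraries and ages. Nearest to Cox7a1 were Ctsb (0.99), 1110059E24Rik (0.98) and Lactb (0.98). Cox7a2 was followed most closely by Acbd6, Pcgf3 and Pspc1 (each 0.96), and Cox8a by Usp47, Aff4 and Cyp51 (each 0.98). Cox8b had Uqcrfs1 (0.84), Ndufb9 (0.83) and Pdha1 (0.72). These encode the Rieske protein of complex III, a complex I subunit and a subunit of pyruvate dehydrogenase. Cox6a2 had Aldoa (0.92), Dgki (0.90) and the complex IV gene Cox6c (0.87), and Cox6a1 had Dhx33 (0.82), Nutf2 and Hspa8 (each 0.80).

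Of 10 other nuclear subunit genes, 9 were tested, and between P1 and P56 4 were higher and 2 lower, where 30.9% and 31.7% of all genes were. Ndufa4, now counted as a complex IV subunit, stood at 35.9, 34.0 and 37.8 CPM at P1, 39.4, 37.7 and 36.6 at P14 and 59.2, 58.9 and 57.9 at P56. The P56 libraries lay above all earlier ones, and the change over the whole span was 0.71 ± 0.06 (adjusted p = 3.86e-06). Cox7b rose by 0.63 ± 0.07 (adjusted p = 3.8e-05) and its paralog Cox7b2 by 0.75 ± 0.09 (adjusted p = 4.65e-05). The level of Cox7b2 beside Cox7b depends on the scale. At P56 Cox7b2 had 40.4 CPM per kilobase of exon and Cox7b 74.8, but per kilobase of gene span 0.208 and 13.5. Cox7c had -0.40 ± 0.12 (adjusted p = 0.0174), a call lost without P1 replicate 3 or P56 replicate 2, and the number lower was then 1. Cox6b1 had 0.20 ± 0.07 to P14 (adjusted p = 0.0401) and then -0.27 ± 0.07 (adjusted p = 0.0129). The first of these Cox6b1 calls was lost without any of P1 replicates 1 and 2, P14 replicates 2 and 3 and P56 replicates 2 and 3 (highest adjusted p = 0.133), the second without P14 replicate 2 (0.0511), and both with the marker score in the fit.

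Some subunit genes have isoforms used mainly in other tissues. Cox6b2, the testis isoform of subunit 6b, had 37, 31 and 31 counts at P1, 1, 3 and 4 at P14 and 0, 5 and 3 at P56. All P1 libraries were far above the later ones, and the change over the whole span was -3.20 ± 0.55 (adjusted p = 0.000624) at these low counts. Cox4i2, the lung isoform of subunit 4, was singled out after its values were seen. It had 7 counts in each P1 library, 48, 32 and 17 at P14 and 10, 7 and 4 at P56, and changed by 2.78 ± 0.43 to P14 (adjusted p = 0.000421) and by -2.41 ± 0.43 from P14 to P56 (adjusted p = 0.00104). Its P14 libraries stood in the same order as their marker scores of other cells, as did those of the mitochondrial gene mt-Co1. Once the score was added the changes of Cox4i2 were 1.17 (adjusted p = 0.099) and -0.13 (adjusted p = 0.937). Which cells gave the Cox4i2 transcripts was not tested.

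**Figure D4:**
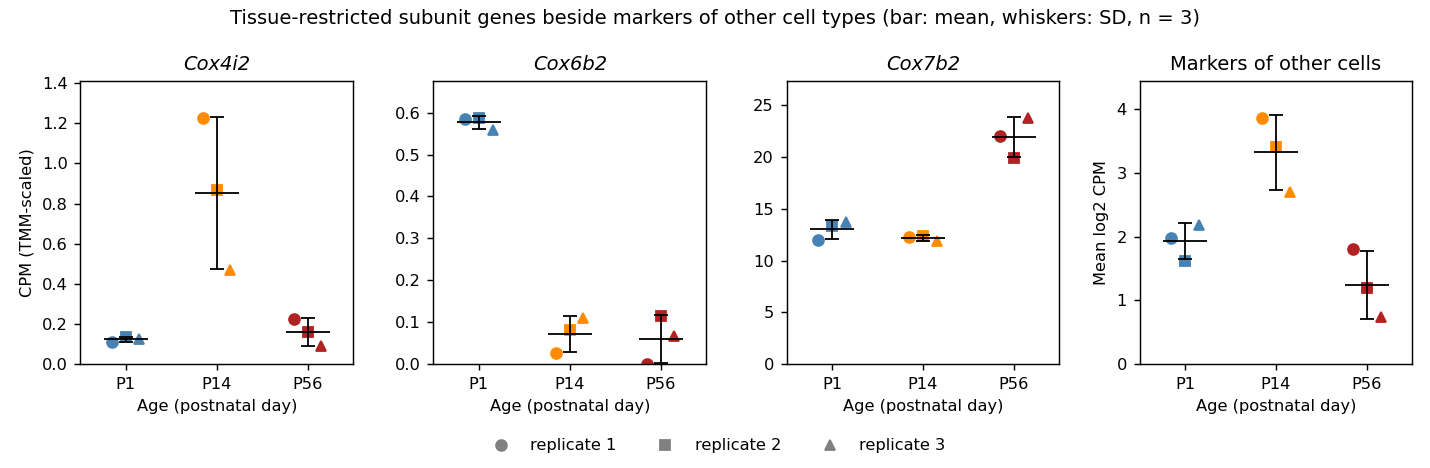
Cox4i2, Cox6b2 and Cox7b2 in CPM and the mean log2 CPM of 35 markers of other cell types (vertical axes, from 0) at each age (horizontal axis), with a symbol per library, a bar for the mean and whiskers for the SD (n = 3). Cox4i2 and the marker panel are highest at P14, Cox6b2 is high at P1 alone, and Cox7b2 is highest at P56.

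**Figure D5:**
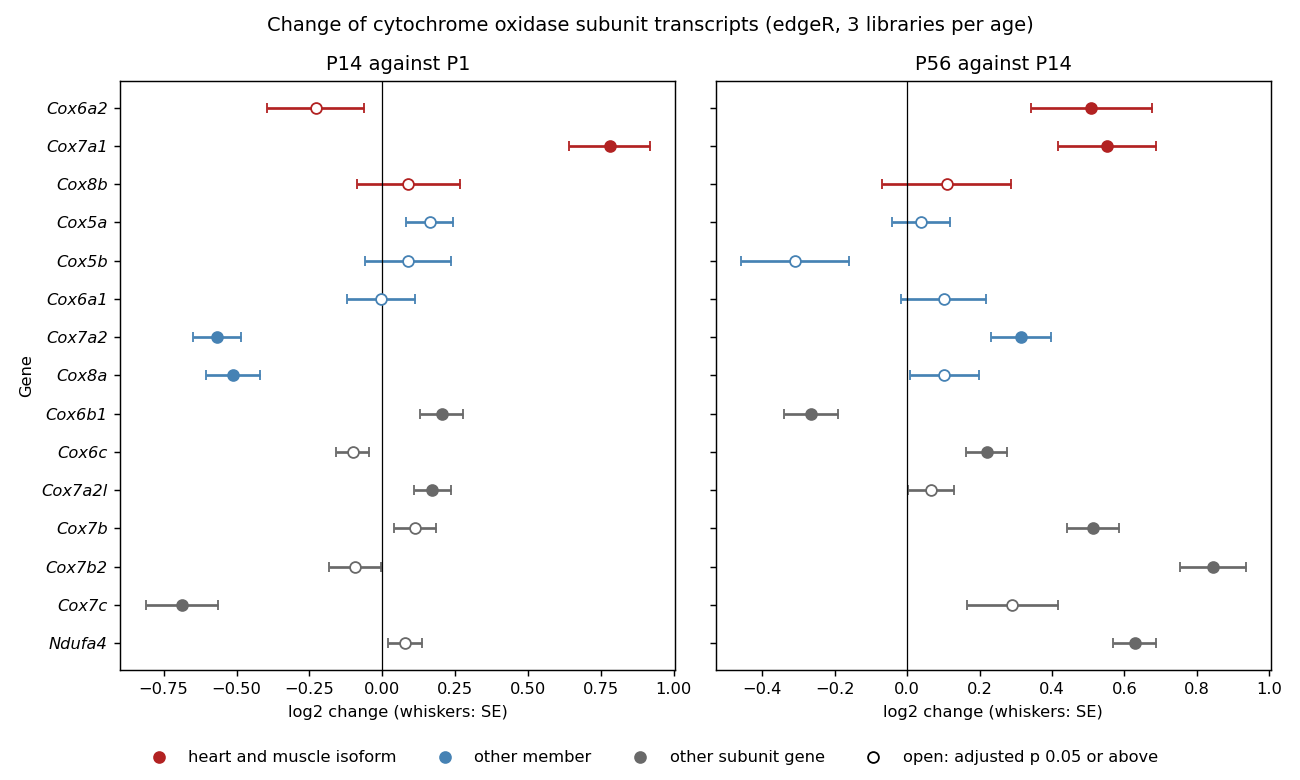
Log2 change (horizontal axis, whiskers SE) of the 8 members and 7 other nuclear subunit genes (vertical axis) from P1 to P14 and from P14 to P56, in edgeR with 3 libraries per age. Filled points passed adjusted p 0.05, and Cox7a1 lies to the right in both panels, at 0.78 and 0.55.

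The mitochondrial core was represented by mt-Co1, the catalytic subunit I, the 1 mitochondrially encoded complex IV gene analysed here. It stood at 413, 375 and 470 CPM at P1, 562, 519 and 314 at P14 and 361, 237 and 259 at P56. P56 overlapped P14, and the P56 libraries lay below those of P1. Its log2 change was 0.15 from P1 to P14 (adjusted p = 0.583) and -0.70 ± 0.22 from P14 to P56 (adjusted p = 0.0199). Adding the marker score turned these to -0.74 (adjusted p = 0.00402) and 0.59 (adjusted p = 0.0778). The P14 to P56 call was also lost without P14 replicate 1 (-0.54, adjusted p = 0.0532) or replicate 2 (0.0711), or P56 replicate 2 (0.0739) or replicate 3 (0.0683). All 6 of the other mitochondrial mRNAs tested were lower at P56 than at P14, with a median of -0.84, in a step where 28.5% of all genes were lower. Mitochondrial genes made up 0.988% to 1.25% of counts in P1 libraries, 0.982% to 2.20% in P14 and 0.378% to 0.731% in P56 libraries. The labels do not settle whether nuclei or whole cells gave the RNA. These values may therefore not measure the mitochondrial RNA of whole cells, and the part of the isolation in them was not tested.

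Among factors that assemble complex IV, 25 of 28 were tested, and between P1 and P56 11 were higher (30.9% of all genes) and 3 lower (31.7%). The largest rises were those of Slirp, which stabilises mitochondrial mRNA (0.88 ± 0.12, adjusted p = 0.000131), Cox19, a copper-related assembly factor (0.73 ± 0.10, adjusted p = 9.31e-05), and Coa4 (0.69 ± 0.15, adjusted p = 0.00218). The falls were those of Higd2a (-0.65 ± 0.15, adjusted p = 0.00317), Coa3 (-0.49 ± 0.18, adjusted p = 0.0398) and the membrane insertase gene Oxa1l (-0.40 ± 0.07, adjusted p = 0.000759). The Coa3 call was lost without any single P1 or P56 library (highest adjusted p = 0.121), with DESeq2 and with the marker score. Cox20, a chaperone of the core subunit II, changed by -0.37 ± 0.07 to P14 (adjusted p = 0.00136) and by 0.23 ± 0.07 afterwards (adjusted p = 0.0188). The later Cox20 call was lost without P14 replicate 2 or P56 replicates 2 or 3 (highest adjusted p over all alternatives 0.685, with the marker score), and the earlier one with the marker score.

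A further list held 10 genes, for cytochrome c, the electron donor of complex IV, and for complex III. Of these 10, 2 were higher and 1 lower at P56 than at P1, against 30.9% and 31.7% of all genes. Uqcrb rose by 0.60 ± 0.07 (adjusted p = 5.01e-05). Cycs, somatic cytochrome c, had 0.24 ± 0.09 (adjusted p = 0.0312), a call lost without any single P1 library or P56 replicate 2 (highest adjusted p = 0.116) and with the marker score. The number higher was 1 without P1 replicate 1, P1 replicate 2 or P56 replicate 2. Cyc1, cytochrome c1, fell by 0.68 ± 0.12 (adjusted p = 0.000557). The core proteins of complex III moved in opposite directions: Uqcrc2 fell by 0.33 ± 0.05 to P14 (adjusted p = 0.000613) and then rose by 0.36 ± 0.05 (adjusted p = 0.000408), while Uqcrc1 rose by 0.47 ± 0.09 (adjusted p = 0.00172) and then had -0.29 ± 0.09 (adjusted p = 0.0205). This last call was lost without P14 replicates 2 or 3 or P56 replicates 1 or 3 (highest adjusted p over all alternatives 0.102).

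Of 17 transcription factors and coactivators known to act on respiratory genes, 6 were higher and 4 lower at P56 than at P1, beside 30.9% and 31.7% of all genes. Esrrb, a nuclear receptor of the ERR group, rose by 1.69 ± 0.18 (adjusted p = 1.99e-05), Ppara, the fatty acid receptor, by 1.41 ± 0.16 (adjusted p = 2.8e-05) and the myocyte enhancer factor Mef2c by 0.90 ± 0.12 (adjusted p = 0.000108). Sp1 fell by 0.53 ± 0.09 (adjusted p = 0.00048), and Nrf1, whose motif was counted above, fell by 0.35 ± 0.06 (adjusted p = 0.000741). Mef2a fell by 0.81 ± 0.07 to P14 (adjusted p = 9.37e-06) and rose by 0.41 ± 0.07 from P14 to P56 (adjusted p = 0.000712), the later call being lost with the marker score (0.0797). Ppargc1b, the coactivator PGC-1beta, had 0.63 ± 0.15 (adjusted p = 0.00517) and then -0.73 ± 0.15 (adjusted p = 0.0023). Esrra had 0.57 ± 0.18 (adjusted p = 0.0239) and then -0.69 ± 0.18 (adjusted p = 0.00988), the first of which was lost without any single P1 library or P14 replicates 2 or 3 (highest adjusted p = 0.0806).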

How the data were processed

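Raw counts of 15824 genes in 9 libraries are what the authors deposited, as 1 integer table. The tools were, per the submitters' processing notes, STAR 2.4.0g1 and bcl2fastq 2.17.1.14, with featureCounts 1.4.2 and GRCm38. The counted feature and strand setting are not given in the sources used here. The lowest mean count per gene was 10.

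Counts were fitted in edgeR 4.0.16 (R 4.3.3) with filterByExpr (15817 genes kept), TMM and age as the only term over all 9 libraries. Calls used its quasi-likelihood F test (glmQLFTest) at a Benjamini-Hochberg adjusted p under 0.05, and the code was tested on simulated data. Isoform ratios used raw counts in each library, with an exact permutation test of F. DESeq2 1.42.0 served as an alternative, and the closing section gives the others' effects. Exon lengths and spans came from the GENCODE annotation of GRCm38, promoters from RefSeq GRCm38.p6. The members, lists and tests were chosen with earlier results of these data known. The text names all members, of each list up to 3 genes per direction with the largest called change from P1 to P56, genes of at least 10 CPM called in opposite directions in the early and late intervals, and the 3 genes most correlated with each isoform of the 3 pairs. Replicate numbers recur across ages without a stated pairing. Pairs of libraries of one age differed beyond counting error (chi-square per degree of freedom 5.48 to 101).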

Additional observations from a re-analysis of the deposited data

How the results depend on the processing

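Of 360 member results under the alternatives, 340 kept direction and side of the threshold, 9 gained a call and 11 lost one. The alternatives were other size factors, DESeq2, no filter, a replicate block, the marker score, only the ages compared, and each library left out. The marker score in the model lowered the genes called from P14 to P56 from 8860 to 4416. From P1 to P14 it reversed mt-Co1 (-0.74, adjusted p = 0.00402). From P14 to P56 it changed the sign of further genes that then passed in neither direction. These were mt-Co1 (0.59, adjusted p = 0.0778), Cox19 (-0.0175, 0.955), Cmc2 (-0.0699, 0.819), Esrrg (-0.0455, 0.848) and Ppara (-0.47, 0.0653). The cause was not tested. Same-numbered libraries had correlated deviations of -0.22 to 0.49, over 0.1 in 3 of 9 pairs, so the numbers were not taken as pairing. With the replicate block, 8824, 8847 and 9998 genes were called from P1 to P14, P14 to P56 and P1 to P56, Cox5a from P1 to P56 (0.0293) and Cox5b from P14 to P56 (-0.31, adjusted p = 0.0493) passed, and the Cox7a1/Cox7a2 ratio, at 1.58 on the log2 scale, had an adjusted permutation p of 0.167, where the smallest possible raw value was 0.0278. Per kilobase of gene span, an alternative chosen after seeing the data, the log2 change of the subunit 7a sum from P1 to P56 was 0.25 (adjusted permutation p = 0.0429), and without a length scale it was 0.01 (0.0536), against 0.16 per kilobase of exon (0.0643). Leaving out single libraries gave 7533 to 9239 genes from P1 to P14, 7693 to 8986 from P14 to P56, 8752 to 10556 from P1 to P56 and 11363 to 12711 for any age difference. The log2 change from P1 to P56 then ranged from 0.11 to 0.35 for Cox6a2/Cox6a1, 1.52 to 1.67 for Cox7a1/Cox7a2 and 0.51 to 0.71 for Cox8b/Cox8a, and from 0.10 to 0.26, 0.10 to 0.23 and -0.19 to 0.01 for the sums of subunits 6a, 7a and 8. Counting error at the lowest member count was 7.62%, which limits what Cox7a1 and Cox8b can show.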
